A study of Mus musculus with 4 samples.

Results

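Atf4, Ddit3, Chac1, Trib3, Asns, Sesn2, Herpud1, Xbp1, Sdf2l1 and Pdia4 are 10 genes of the integrated stress response and the unfolded protein response, and they were taken by name from the 49492 gene rows of a read count table of whole mouse testis. Each name matched 1 row. The 4 libraries came from male C57BL/6J mice that had all received LPS (lipopolysaccharide, a bacterial product that activates innate immunity). By the labels, 2 carried a hairpin against Spry1 (genotype Spry1 knockdown) and 2 a control hairpin (genotype WT). Spry1 encodes Sprouty1, which dampens signalling by receptor tyrosine kinases. The labels give neither the age of the mice, the dose and timing of LPS and the way the hairpins were delivered, nor whether the replicates are separate animals, so the spread behind each p-value is that of these samples and may be technical.

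The count columns are headed LPS_1, LPS_2, NC_1 and NC_2. NC was taken to mean the control hairpin and LPS the Spry1 knockdown. This is a reading of the names, because LPS stands in all 4 sample titles, and if the headings mean LPS against no LPS, each difference below belongs to that contrast. For this reason the groups go by their headings, LPS columns and NC columns. Libraries held 17612342 to 22451132 counts. Spry1 had 26 and 17 counts in the LPS columns, against 45 and 41 in the NC columns (log2 fold change -0.82 ± 0.28 SE, edgeR adjusted p = 0.0212). The Spry1 call did not hold with DESeq2 (adjusted p = 0.249) or when edgeR left out LPS replicate 2 (0.183), NC replicate 1 (0.0952) or NC replicate 2 (0.0653).

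The integrated stress response begins when a kinase phosphorylates the translation factor eIF2, which lowers protein synthesis while the transcription factor ATF4 is made in larger amounts from its existing mRNA. ATF4 then raises genes of amino acid supply and, with CHOP (encoded by Ddit3), genes linked to cell death. The unfolded protein response answers misfolded protein in the endoplasmic reticulum (ER) through the sensors PERK, IRE1 and ATF6. PERK is an eIF2 kinase, IRE1 splices the Xbp1 mRNA, and XBP1 and ATF6 raise chaperones, folding enzymes and the ER-associated degradation machinery (ERAD). Gene counts do not separate spliced from unspliced Xbp1 mRNA and do not measure ATF4 protein.

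The 10 genes did not move as a block. Xbp1, Sesn2, Sdf2l1, Pdia4 and Ddit3 were higher in the LPS columns, by log2 fold changes of 0.24 to 0.65. Chac1 and Herpud1 were lower, at -1.77 and -0.32. Atf4 and Asns were not called, and Trib3 was too low to be tested. Thus 9 of 10 genes passed the filter on low counts, and of these 5 were called higher, 2 lower and 2 not, at an adjusted p under 0.05 in edgeR's quasi-likelihood test adjusted over all 20855 genes tested. Over those 20855 genes, 15.2% were called higher and 16.3% lower. Scaling by library size without TMM factors made 62% of all calls higher, against 48.3% with TMM scaling, but the calls of the 9 genes were the same. Each of the 7 called genes kept its direction and call in all 9 alternative analyses. The libraries of the groups did not overlap in any of the 10 genes, where 64.1% of the tested genes showed no overlap.

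**Figure D1:**
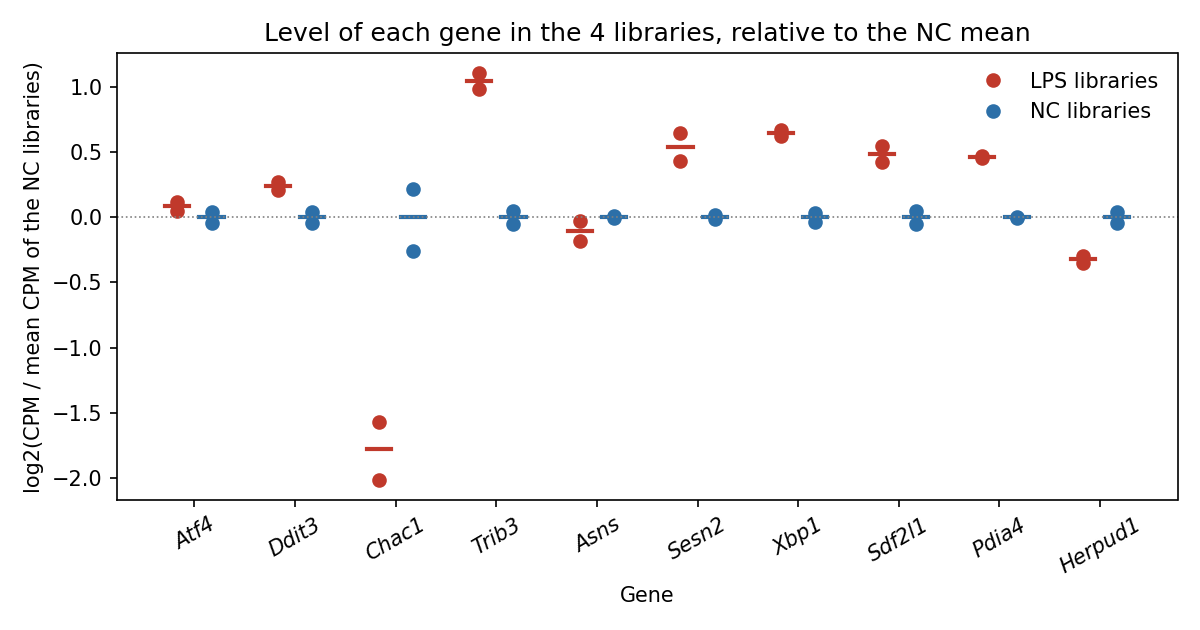
Level of each gene in each library, as the log2 ratio of its CPM (counts scaled to the library total) to the mean CPM of the NC libraries (vertical axis), for the 10 genes (horizontal axis). Points are libraries, 2 per group, and bars are the log2 ratio of the group means; Xbp1, Sesn2, Sdf2l1 and Pdia4 lie above the NC libraries and Chac1 and Herpud1 below them, while Trib3 rests on 3 to 6 counts a library.

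Atf4, the transcription factor at the centre of the response, was not called at the mRNA. It had 37.1 and 38.9 CPM in the LPS columns, against 34.8 and 36.8 CPM in the NC columns, where CPM are counts scaled to the TMM-adjusted library total. The groups lay just apart, with a gap smaller than the distance between replicates. Its log2 fold change was 0.09 ± 0.07 SE (edgeR adjusted p = 0.409), and the ratio of scaled counts was 1.06 with an exact binomial 95% interval of 0.987 to 1.14, which covers counting error only. Over 9 alternatives the log2 fold change of Atf4 ranged from 0.05 to 0.15.

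Ddit3, which encodes the pro-apoptotic factor CHOP, was the most abundant of the 10. It had 153.95 and 160.3 CPM in the LPS columns, against 128.96 and 136.8 CPM in the NC columns. Both LPS libraries lay above both NC libraries. The log2 fold change was 0.24 ± 0.06 SE (edgeR adjusted p = 0.000912), the smallest among the called genes of the 10. Ddit3 lies on chromosome 10 and shares 81 of its 1713 exon bases with Mars and Gm4189 on the opposite strand, and the strand setting of the counting is not given in the sources used here.

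Among the targets of ATF4, Chac1 showed the largest change. CHAC1 degrades glutathione, and its gene is raised by ATF4 and CHOP in stressed cells. Chac1 had 15 and 10 counts in the LPS columns, against 58 and 39 in the NC columns. These are 0.761 and 0.560 CPM in the LPS columns, against 2.64 and 1.90 CPM in the NC columns. Every LPS library was thus below every NC library, although replicates differed by 0.44 (LPS) and 0.47 (NC) on the log2 scale. The log2 fold change was -1.77 ± 0.31 SE (edgeR adjusted p = 2.92e-05), and 0.762% of tested genes had a lower one. Over the 9 alternatives it ranged from -2.01 to -1.50.

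Asns, which makes asparagine, had 40.2 and 44.8 CPM in the LPS columns, against 45.9 and 45.4 CPM in the NC columns. The LPS libraries lay below, but their own spread was wider than the gap to the NC libraries. Its log2 fold change was -0.10 ± 0.07 SE (edgeR adjusted p = 0.281), and the ratio of scaled counts was 0.928 with an exact binomial 95% interval of 0.868 to 0.993 for counting error only. Trib3, a pseudokinase that restrains ATF4 and AKT, had 6 and 5 counts in the LPS columns, against 3 and 3 in the NC columns. At this depth no difference in Trib3 was detectable, as the ratio of scaled counts, 2.08, had an exact binomial 95% interval of 0.703 to 6.83. With no filter on low counts edgeR gave Trib3 an adjusted p of 0.473.

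Sesn2 moved the other way from Chac1. Sestrin 2 senses leucine and restrains the growth kinase complex mTORC1, and its gene also responds to p53 and oxidative stress. Sesn2 had 15.9 and 18.4 CPM in the LPS columns, against 11.9 and 11.6 CPM in the NC columns. Both LPS libraries were higher, with a wider spread than the NC libraries. The log2 fold change was 0.54 ± 0.10 SE (edgeR adjusted p = 0.000109).

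**Figure D2:**
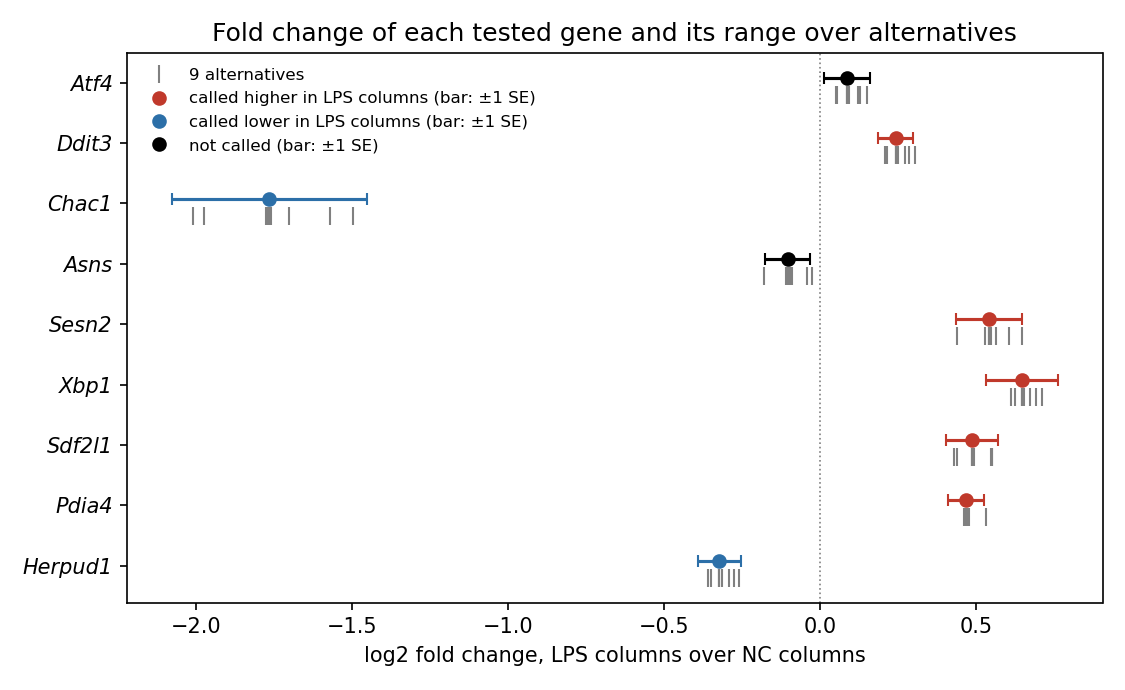
Log2 fold change of the LPS columns over the NC columns (horizontal axis) for the 9 tested genes (vertical axis). Points are edgeR estimates with bars of 1 SE, coloured by call, and the grey ticks under each are the 9 alternative analyses; no tick crosses 0, and Chac1 has the widest range, -2.01 to -1.50.

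The promoters of the 10 genes were searched for the letters bound by these pathways, in the RefSeq windows of build GRCm38.p6 that run 250 bases before and 50 after each gene's start. All 10 genes had a window. The C/EBP-ATF response element core (CARE), which ATF4 binds with a C/EBP partner, was written TGATGNAA or its reverse complement TTNCATCA. It was found in Chac1, Asns, Herpud1 and Trib3, and in 3.91% of 32544 promoter windows. The ER stress response element II (ERSE-II), which ATF6 and XBP1 bind, was searched on both strands. It was found in Herpud1 alone of the 10, and in 12 of the 32544 windows. Neither the longer element ERSE nor the UPRE core (TGACGTGG) was found on either strand in any of the 10, where 0.12% and 0.682% of all windows hold them. No motif searched was in the windows of Atf4, Ddit3, Sesn2, Xbp1, Sdf2l1 or Pdia4. Only exact matches counted, where N is any base, so elements with a changed letter were missed. Other elements outside these windows were not searched.

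The 3 stretches with a match upstream of the start are shown because they belong to the called genes that were lower and to Asns, the uncalled gene with a CARE match. Capitals mark the CARE letters and, in Herpud1, also the ERSE-II letters nearer to the start. Each stretch is given 5′ to 3′ on the gene's own strand, with the RefSeq start site as position 0. The Chac1 stretch is chr2:119351029-119351076 on the plus strand, positions -213 to -166. The Asns stretch is chr6:7693210-7693252 on the minus strand, positions -43 to -1. The Herpud1 stretch is chr8:94386297-94386407 on the plus strand, positions -132 to -22.
Chac1: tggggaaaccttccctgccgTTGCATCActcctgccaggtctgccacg
Asns: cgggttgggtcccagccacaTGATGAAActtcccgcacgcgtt
Herpud1: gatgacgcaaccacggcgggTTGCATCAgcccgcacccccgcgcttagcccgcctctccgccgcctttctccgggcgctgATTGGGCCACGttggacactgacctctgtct

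Chac1 and Herpud1 hold the same 8 letters, TTGCATCA, in the reverse orientation, and both genes were lower in the LPS columns. Asns and Trib3 also hold a CARE match, but Asns was not called and Trib3 was too low to be tested. A tie between the motif and the direction was not tested. The Trib3 match, TTACATCA, lies after the RefSeq start, at positions 14 to 21 (chr2:152344039-152344046, minus strand). The counted Trib3 gene begins at 152344032, so this match lies before the counted gene. The counted Asns gene begins at 7693254, so the Asns stretch lies inside the span of the counted gene. Over the whole table, the 417 tested genes with a CARE match in a window were called higher in 14.1% and lower in 16.1%, against 15.2% and 16.3% of all tested genes. Their median log2 fold change was -0.02.

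Of the genes of the ER branches, Xbp1 showed the largest rise. It had 12.5 and 12.9 CPM in the LPS columns, against 8.32 and 7.89 CPM in the NC columns. The groups were far apart for the distance between replicates, which was 0.05 (LPS) and 0.08 (NC) on the log2 scale. The log2 fold change was 0.65 ± 0.12 SE (edgeR adjusted p = 3.74e-05), and 93.2% of tested genes had a lower one.

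Sdf2l1 encodes an ER protein that works with the chaperone BiP and its partner ERdj3. It had 29.5 and 32.1 CPM in the LPS columns, against 22.8 and 21.1 CPM in the NC columns. Both LPS libraries were above both NC libraries, and the log2 fold change was 0.49 ± 0.08 SE (edgeR adjusted p = 1.78e-05). Pdia4, the protein disulfide isomerase ERp72, had 126.3 and 125.1 CPM in the LPS columns, against 90.6 and 91.3 CPM in the NC columns. Pdia4 had the closest replicates of the 10 genes, 0.01 apart on the log2 scale in each group. Its log2 fold change was 0.47 ± 0.06 SE, and its edgeR adjusted p of 3.67e-08 was the smallest of the 10. The Pdia4 gene on chromosome 6 shares 14 exon bases with the microRNA gene Mir704, on the same strand.

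Herpud1 moved the other way from Xbp1, Sdf2l1 and Pdia4. Its product sits in the ER membrane and organises the ERAD ubiquitin ligase complex. Herpud1 had 41.7 and 43.5 CPM in the LPS columns, against 54.7 and 51.8 CPM in the NC columns. Both LPS libraries lay below both NC libraries, with a log2 fold change of -0.32 ± 0.07 SE (edgeR adjusted p = 0.000325) and a range of -0.36 to -0.26 over 9 alternatives. Its paralogue Herpud2, also tied to ERAD, was at -0.26 ± 0.07 (edgeR adjusted p = 0.00655). The Herpud2 call did not hold with DESeq2 (adjusted p = 0.0772) and, among edgeR fits, without LPS replicate 1 (0.0743) or NC replicate 1 (0.106).

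Levels per length placed the 10 genes over a wide range. Ddit3 led with 89.9 and 93.6 CPM per kilobase of exon in the LPS columns, against 75.3 and 79.9 in the NC columns, above 95.9% of tested genes in the mean of the 4 libraries. Pdia4 followed, at 52.6 and 52.1 CPM per kilobase in the LPS columns, against 37.8 and 38.1 in the NC columns. The next places changed between groups. In the LPS columns Sdf2l1 (26.6 and 29.0 CPM per kilobase) lay above Atf4 (21.5 and 22.6) and Atf4 above Herpud1 (17.9 and 18.6). In the NC columns Herpud1 (23.4 and 22.2 CPM per kilobase) lay above Atf4 (20.2 and 21.4) and Sdf2l1 (20.5 and 19.1), and Atf4 and Sdf2l1 overlapped. Asns came below these, then Sesn2 and Xbp1, each under 6 CPM per kilobase in every library. Chac1 had 0.465 and 0.342 CPM per kilobase in the LPS columns, against 1.61 and 1.16 in the NC columns, and Trib3 was lowest with at most 0.143.

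**Figure D3:**
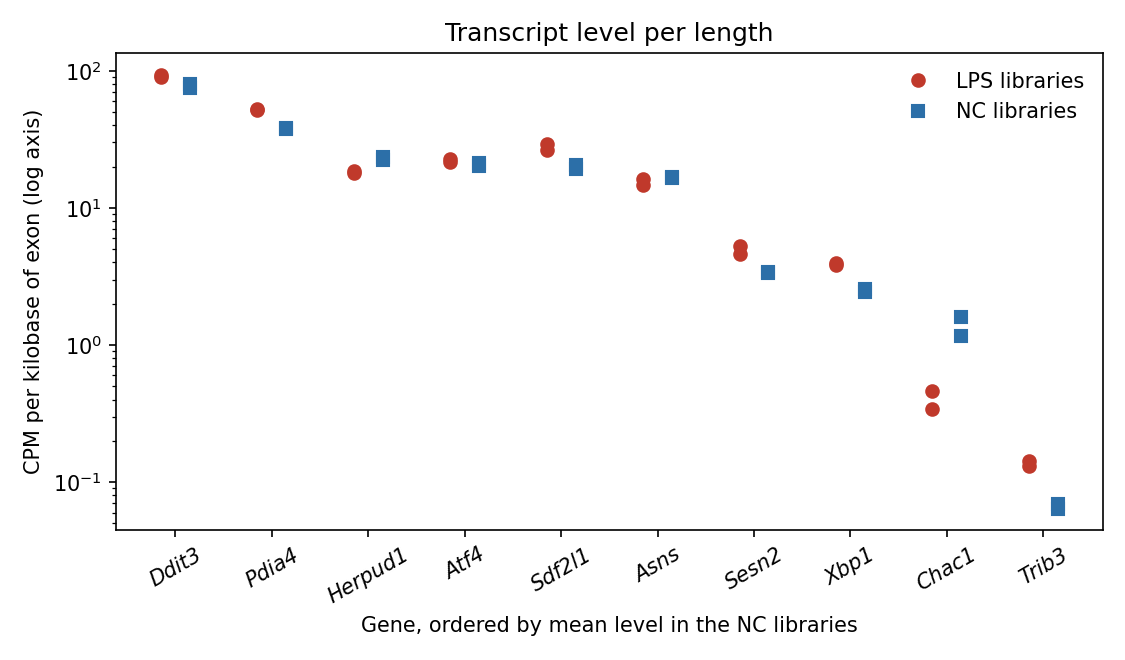
Level per length (vertical axis, CPM per kilobase of exon, log scale) of the 10 genes (horizontal axis, ordered by the NC mean). Points are libraries, 2 per group; Ddit3 and Pdia4 are highest in every library, and Sdf2l1 and Herpud1 change places between the groups.

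Of the kinase and sensor genes upstream, those of ATF6 were called and the others tested were not. The eIF2 kinase genes Eif2ak1 (HRI), Eif2ak2 (PKR), Eif2ak3 (PERK) and Eif2ak4 (GCN2) had log2 fold changes of 0.02, 0.02, 0.18 and 0.16, and none was called (edgeR adjusted p of 0.318 to 0.917). Ern1, which encodes IRE1 alpha, was at 0.00 ± 0.11 (edgeR adjusted p = 0.99), with 10.96 ± 0.06 CPM in the LPS columns and 10.99 ± 0.31 CPM in the NC columns (SD, n = 2 per group). Its paralogue Ern2 had 0 and 3 counts in the LPS columns, against 6 and 2 in the NC columns, and was too low to be tested. Atf6 rose by 0.54 ± 0.10 (edgeR adjusted p = 9.27e-05) and its paralogue Atf6b by 0.43 ± 0.10 (adjusted p = 0.000924), and both kept the call in all 9 alternatives.

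Counted as lists, 6 of 18 tested UPR sensor and processing genes, Xbp1 included, were called higher and 2 lower. The shares over all tested genes were 15.2% higher and 16.3% lower. The median log2 fold change of the list was 0.17, against 0.00 over all tested genes. Besides Xbp1 and Atf6, the largest rise was that of Creb3l2, an ER-anchored bZIP factor (0.53 ± 0.18). The members that were lower were Map3k5, the stress kinase ASK1 (-0.44 ± 0.13), and Creb3l4, an ER-anchored factor of spermatids (-0.15 ± 0.05). Creb3l2 lost its call with DESeq2 (adjusted p = 0.207) and, among edgeR fits, without LPS replicate 2 (0.0868) or NC replicate 2 (0.330, log2 fold change 0.28). Map3k5 lost it with DESeq2 (0.158) and without LPS replicate 1 (0.0785), and Creb3l4 with DESeq2 (0.0670), library size scaling (0.178), and without LPS replicate 1 (0.174), NC replicate 1 (0.0638) or NC replicate 2 (0.166). DESeq2 called 3 of this list higher and 0 lower. Over all 20855 tested genes DESeq2 called 1454 higher and 1845 lower, fewer than edgeR. Its counts in each list are to be read against these totals.

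A list of 18 tested genes held those for eIF2 kinases, eIF2, eIF2B and eIF2 phosphatase subunits, and also Dnajc3, Gcn1l1, Impact and Abce1. Of the 18, 2 were called higher, 1 lower and 15 not, against 15.2% higher and 16.3% lower over all tested genes. The median log2 fold change of the list was 0.09. Ppp1r15a, which encodes the stress-induced eIF2 phosphatase subunit GADD34, was at 0.30 ± 0.09 and Eif2s3x, the gamma subunit of eIF2, at 0.51 ± 0.15. The 1 lower gene was Abce1, a ribosome recycling factor, at -0.23 ± 0.07. DESeq2 called 0 of these genes in either direction, with adjusted p of 0.100 for Ppp1r15a, 0.151 for Eif2s3x and 0.0729 for Abce1. In edgeR the Ppp1r15a call was also lost without LPS replicate 2 (0.0539) or NC replicate 2 (0.0618), that of Eif2s3x without LPS replicate 1 (0.0973), and that of Abce1 without LPS replicate 1 (0.0828) or NC replicate 2 (0.235) and with library size scaling (0.0593).

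Among stress bZIP factors and partners of ATF4, 5 of 12 tested genes were called higher and 0 lower. The shares over all tested genes were 15.2% and 16.3%. The median of the list was 0.15, and DESeq2 called 3 higher, where it called 1454 of all 20855 tested genes higher. Cebpd and Cebpb, C/EBP factors of the acute-phase response, were at 1.53 ± 0.16 and 1.61 ± 0.38, and Nupr1, a stress-induced chromatin protein, at 1.10 ± 0.21. Cebpd had 8.44 ± 0.69 CPM in the LPS columns and 2.92 ± 0.08 CPM in the NC columns (SD, n = 2 per group). Cebpb had 31 and 26 counts in the LPS columns, against 16 and 5 in the NC columns, and its call did not hold with DESeq2 (adjusted p = 0.0550) and, among edgeR fits, without NC replicate 2 (0.0617, log2 fold change 1.06). Cebpb reached 2.61 without NC replicate 1. The other called factors were Ddit3 and Cebpa, of which Cebpa is named after its values were seen.

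The ATF4 targets other than the 10 genes split. Of 32 tested, 10 were called higher, 6 lower and 16 not, against 15.2% higher and 16.3% lower over all tested genes. DESeq2 called 3 of the list higher and 2 lower, against 1454 higher and 1845 lower of all 20855 tested genes. The median log2 fold change of the list was 0.12. Slc7a5, the leucine transporter LAT1, fell to 64.7 ± 1.2 CPM in the LPS columns, against 86.1 ± 0.5 CPM in the NC columns (SD, n = 2 per group). Its log2 fold change was -0.41 ± 0.06 (edgeR adjusted p = 1.39e-06). Slc7a11, the cystine transporter xCT, was at -0.70 ± 0.25, and Psat1, an enzyme of serine synthesis, at -0.41 ± 0.16. The largest rises were those of Cebpb and Nupr1, given above, and Aldh18a1, an enzyme of proline synthesis (0.81 ± 0.18, edgeR adjusted p = 0.000611).

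The calls of Slc7a5, Nupr1 and Aldh18a1 held in all 9 alternatives. Slc7a11 lost its call with DESeq2 (adjusted p = 0.276), under library size scaling (0.0516) and, among edgeR fits, without LPS replicate 2 (0.269, log2 fold change -0.46) or NC replicate 1 (0.173). Psat1 lost it with DESeq2 (0.322), library size scaling (0.101), no filter on low counts (0.0706), and without LPS replicate 2 (0.290), NC replicate 1 (0.117) or NC replicate 2 (0.137).

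Of 20 tested genes for cytosolic aminoacyl-tRNA synthetases, many of them ATF4 targets, 4 were called higher, 2 lower and 14 not, with a median log2 fold change of 0.06. Over all tested genes 31.5% were called in either direction by edgeR, which is close to the share here. DESeq2 called 3 of the list higher and 0 lower, against 1454 higher and 1845 lower of all 20855 tested genes. Dars was at 0.43 ± 0.06 (edgeR adjusted p = 1.43e-06), Sars at 0.28 ± 0.07 and Nars at 0.21 ± 0.07, while Cars was at -0.21 ± 0.07 and Farsa at -0.18 ± 0.06. The Dars call held in all 9 alternatives, and that of Sars was lost without LPS replicate 2 (edgeR adjusted p = 0.0847). Nars lost its call with DESeq2 (0.143), without LPS replicate 2 (0.113) and without NC replicate 1 (0.139). Cars was called neither by DESeq2 (0.182) nor by edgeR with library size scaling (0.127), no filter on low counts (0.0588) or any single library left out (0.0697 to 0.155). Farsa lost its call with DESeq2 (0.101), with library size scaling (0.132) and without LPS replicate 1 (0.126), NC replicate 1 (0.0687) or NC replicate 2 (0.138).

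**Figure D4:**
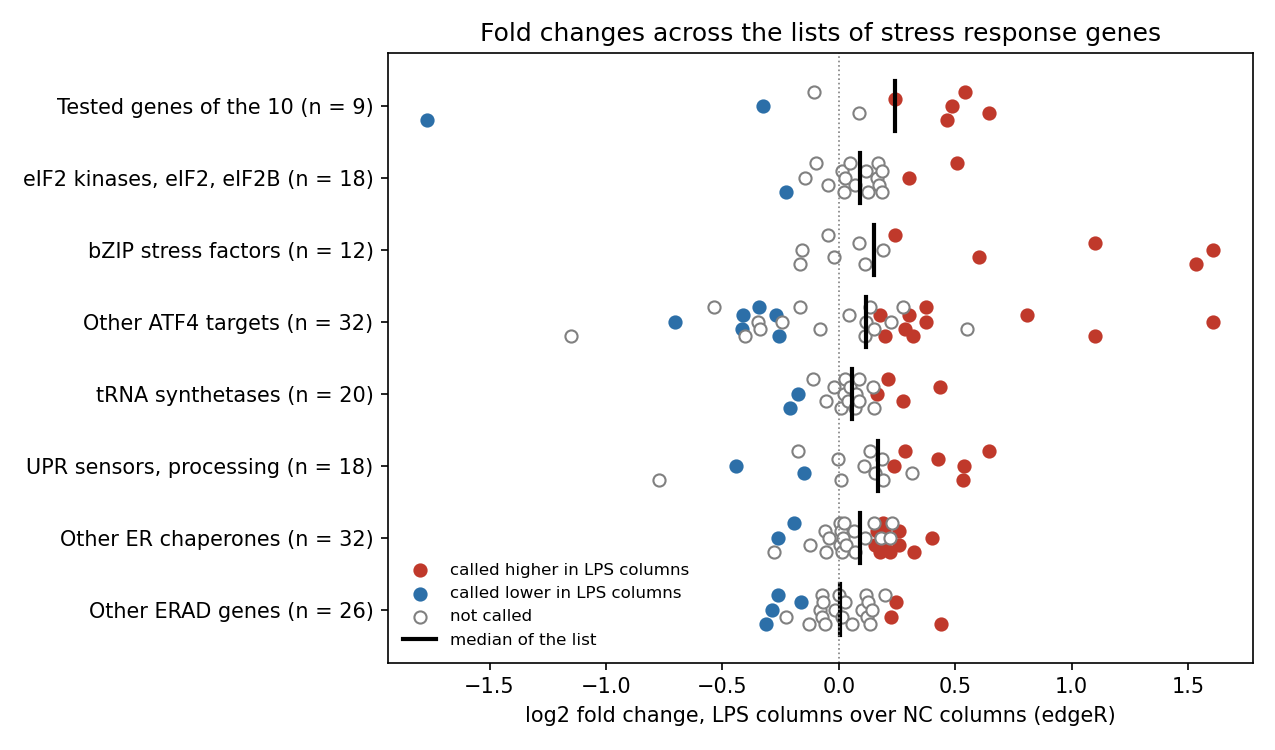
Log2 fold change of the LPS columns over the NC columns (horizontal axis) for every tested gene of the 10 and of 7 lists (vertical axis, with the number tested). Filled points were called by edgeR at an adjusted p under 0.05, open points were not, and black bars are list medians, which lie between 0.01 and 0.17 for the 7 lists and at 0.24 for the tested genes of the 10.

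ER chaperones and folding enzymes other than Sdf2l1 and Pdia4 were called higher in 11 of 32 tested genes and lower in 2. The shares over all tested genes were 15.2% and 16.3%. The median log2 fold change of the list was 0.09. DESeq2 called 4 higher and 2 lower, against 1454 higher and 1845 lower of all 20855 tested genes. Uggt1, the folding sensor of glycoproteins, was at 0.40 ± 0.08 (edgeR adjusted p = 0.000163), the disulfide isomerase gene Pdia5 at 0.32 ± 0.09 and Uggt2 at 0.26 ± 0.08. Dnajb9, the BiP partner ERdj4 and a known XBP1 target, was lower at -0.26 ± 0.07 (edgeR adjusted p = 0.00219). Calr3, the testis form of calreticulin, was at -0.19 ± 0.05. Calls of Uggt1 and Dnajb9 held in all 9 alternatives. Pdia5 lost its call with DESeq2 (adjusted p = 0.0916) and without LPS replicate 2 (0.0734), Uggt2 with DESeq2 (0.123) and without NC replicate 2 (0.137), and Calr3 with library size scaling (0.0531), without LPS replicate 1 (0.106) and without NC replicate 2 (0.0828).

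Of 26 tested ERAD genes other than Herpud1, 3 were called higher, 4 lower and 19 not. These shares are not far from the 15.2% higher and 16.3% lower over all tested genes. The median log2 fold change of the list was 0.01. DESeq2 called 1 higher and 2 lower, against 1454 higher and 1845 lower of all 20855 tested genes. Sel1l, the scaffold of the HRD1 ubiquitin ligase, was at 0.44 ± 0.08 (edgeR adjusted p = 3.37e-05), whereas its testis paralogue Sel1l2 was at -0.31 ± 0.07 (adjusted p = 0.000347). Ube2j1, a ubiquitin-conjugating enzyme of ERAD, was at -0.29 ± 0.05 (edgeR adjusted p = 4.06e-05). These 3 calls held in all 9 alternatives, with Sel1l at 0.27 to 0.60. The ubiquitin-conjugating enzyme gene Ube2g2 was at 0.22 ± 0.09. Ube2g2 lost its call with DESeq2 (adjusted p = 0.262), with no filter on low counts (0.0655) and with any single library left out (0.0702 to 0.197).

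Cell type markers moved between the same columns. Their calls by edgeR stand beside 15.2% higher and 16.3% lower over all tested genes. Testis markers were abundant, with Prm2 at 6503 ± 114 CPM in the LPS columns and 10485 ± 584 CPM in the NC columns (SD, n = 2 per group), and epididymis markers were at or near 0, with a sum of at most 0.292 CPM in any library. The 9 elongating spermatid markers summed to 17294 to 17692 CPM in the LPS columns, against 23503 to 24343 CPM in the NC columns, with 0 called higher and 7 lower. Sertoli cell markers summed to 938 to 945 CPM in the LPS columns, against 693 to 697 in the NC columns, with 5 of 10 higher and 0 lower. Peritubular myoid markers summed to 308 to 312 CPM in the LPS columns, against 204 to 217 in the NC columns, with 4 of 5 higher. Macrophage and monocyte markers summed to 104 to 117 CPM in the LPS columns, against 62.2 to 69.8 in the NC columns, with 7 of 11 tested higher and 2 lower.

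Leydig cell markers summed to 483 to 559 CPM in the LPS columns, against 887 to 930 in the NC columns. Of these 9 markers 5 were lower and 2 higher, against 16.3% lower and 15.2% higher over all tested genes. Insl3 was not called (-0.07 ± 0.06). Round spermatid markers were lower in 5 of 8 and higher in 1, with sums of 1466 to 1515 CPM in the LPS columns, against 1554 to 1572 in the NC columns. Spermatocyte markers had sums of 3036 to 3175 CPM in the LPS columns, against 3103 to 3238 in the NC columns, with 2 of 9 higher and 1 lower. Spermatogonia markers summed to 100.3 to 111 CPM in the LPS columns, against 74.8 to 81.7 in the NC columns. Of 6 tested, 3 were higher and 0 lower. Stra8 had 52.4 ± 7.3 CPM in the LPS columns and 29.8 ± 2.0 CPM in the NC columns (SD, n = 2 per group), while Uchl1 was not called (0.03 ± 0.10). Endothelial markers summed to 25.8 to 29.6 CPM in the LPS columns, against 24.2 to 29.9 in the NC columns. They went both ways, with 2 of 6 higher and 1 lower (Cdh5 at 0.74 ± 0.19, Vwf at -0.45 ± 0.12). Neutrophil markers summed to 3.19 to 3.35 CPM in the LPS columns, against 0.818 to 1.02 in the NC columns. Only 2 of these 7 markers, S100a9 and Mpo, were tested, and both were called higher. Another, Ly6g, had 0 and 0 counts in the LPS columns, against 4 and 6 in the NC columns. B and plasma cell markers summed to 3.86 to 4.82 CPM in the LPS columns, against 4.87 to 5.23 in the NC columns. Of these 8 markers 3 were tested, with 0 called higher and 1 lower. In whole testis, fewer cells of a type and less RNA per cell cannot be told apart, and the part of these markers in the values of the 10 genes was not tested.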

How the data were processed

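Tools named by the submitters' processing notes, without roles, are STAR 2.5.3a, Trimmomatic 0.36, Subread 1.5.1, featureCounts, DESeq and edgeR 3.12.1, and the build is mm10. The deposited table holds raw read counts per gene, with exon positions and gene lengths, per the file headers. The kit was stranded, per the labels' protocols. The sources used here give neither the annotation release nor the strand setting, and do not mention molecular identifiers.

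Genes were filtered with filterByExpr, scaled by TMM and tested with edgeR 4.0.16 (quasi-likelihood, group as the only term, 2 residual and 34 prior degrees of freedom) with Benjamini-Hochberg adjustment over 20855 genes. SE is the log2 fold change divided by the square root of F. CPM use TMM-scaled library sizes. A count of 0 allows 0.134 to 0.170 CPM (3 counts) in a library, here by the library total without TMM factors. Replicates had a chi-square per degree of freedom of 2.33 (LPS) and 2.22 (NC), so they were kept apart. Alternatives were DESeq2 1.42.0, its size factors in edgeR, library size scaling, no filter, a replicate block, and leaving out each library, where the lone sample is assumed to vary like the others. The scripts were tested on simulated data.

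The members and lists were chosen with earlier results of these data known. Named were all 10 genes, Spry1, the eIF2 kinases and UPR sensors, up to 3 called genes in each direction per pathway list, and the most abundant markers. Not each of these markers is named in the text. A gene that this rule names is not reported here. Gene positions are those of the deposited table, and promoters are RefSeq's for GRCm38.p6, the same assembly.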

Additional observations from a re-analysis of the deposited data

How the results depend on the processing

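The 5 calls higher and 2 lower among the 10 genes stood in all 9 alternatives, and none of the 9 tested genes changed direction. The highest adjusted p of a called gene was 0.0247, for Ddit3. DESeq2 called 1454 genes higher and 1845 lower, against 3169 and 3394 with edgeR, and the cause was not tested. Leaving out single libraries gave 2255 to 2730 higher and 2425 to 2962 lower. With the replicate number as a block, edgeR called 3376 higher and 3594 lower and the same 5 and 2 of the 10 genes. The numbers may not pair samples, since deviations of same-numbered samples correlated across genes at 0.0155. List counts were less stable. ATF4 targets called higher ranged from 3 to 13 and lower from 2 to 8, and ER chaperones called higher from 4 to 15. Depth limits Trib3 and Chac1 most. Trib3 had 11 counts over the LPS columns and 6 over the NC columns, and Chac1 had 25 and 97.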
